A study of Pimephales promelas with 270 samples.

Results

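The larvae described here are the unexposed controls aged 6 days post fertilization, followed at 6, 24 and 48 h of the experiment. They were chosen by a rule on the labels alone, as every library labelled 6 days and control. No measured value entered that rule, though earlier results of these data were known when the groups were chosen. The table used holds 28 such libraries among 266, with 10 at 6 h, 10 at 24 h and 8 at 48 h. The labels list 270 samples and 10 controls at 48 h, and 2 of those controls are not analysed here.

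The animals were larvae of Pimephales promelas, the fathead minnow, which is a freshwater fish common in toxicity testing, and their mRNA was sequenced. Larvae of 3 ages (4, 5 and 6 days post fertilization) were held for 6, 24 or 48 h without drug or in propranolol, a blocker of beta-adrenergic receptors, at 0.66 or 3.3 mg/l. Each age and time has a library code of its own, shared by its controls and its exposed larvae, so the time and the library set cannot be told apart. The treatment text of the labels names ethinyl estradiol at other doses, whereas the title, the design and the dose labels name propranolol, and the propranolol labels were followed.

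The controls carry dose C in the labels, which was read as larvae without propranolol. What water or carrier they were held in is not given in the sources used here. No strain, sex, genotype or feeding is labelled. The labels do not say if age refers to the start or the end of the experiment, so the 48 h larvae may have been older than the 6 h larvae when frozen. Nothing in the labels says whether the libraries of a group came from separate vessels or from pooled larvae. The p-values therefore measure the spread between these libraries, which may in part be technical.

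Fathead minnow larvae of about this age have hatched or are hatching, use up their yolk and begin to feed, while the gut, liver, muscle and sense organs go on developing. Messenger RNA levels in whole fish larvae are known to shift with such growth, with food and with the daily clock. Unexposed larvae sampled at each time are what a drug effect is measured against, so their own changes set the baseline of the exposure experiment.

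The unit measured is the transcript, given in the table by a bare identifier with no gene name. 0 of 34856 identifiers matched the RefSeq gene table, so the labelled stage could not be checked against marker genes and no role can be given to a transcript. In whole larvae, fewer cells of a type and less RNA per cell cannot be told apart. Levels are given as CPM, which puts every library on the same total after scaling by edgeR's TMM method, and are not corrected for transcript length, so they are compared between times and not between transcripts. A transcript is called changed when edgeR's quasi-likelihood test gave a false discovery rate below 0.05 after Benjamini-Hochberg adjustment over all transcripts tested.

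The 28 libraries held 5.37 to 18.6 M counts, with group medians of 14.7 M at 6 h, 13.1 M at 24 h and 13.8 M at 48 h. Each detected 33345 to 34584 transcripts. No library was a near-copy of another of its group, since the chi-square of a pair divided by its degrees of freedom was never below 7.41, and all entered as separate samples. Libraries of a group lay on average 0.473 to 0.620 log2 units from the others of that group. Library 1 at 6 h (0.620) and library 7 at 48 h (0.592) stood apart from the rest of their groups, where the next highest values were 0.544 and 0.514. Library 1 at 6 h also detected the fewest transcripts of the 6 h group, 33906. Counts of changed transcripts are given below with and without these 2 libraries.

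Between 6 and 24 h, an interval of 18 h, 6851 of 30145 transcripts tested changed (22.7%), of which 3609 rose (12%) and 3242 fell (10.8%). Most changes were small. The median rise was 0.51 and the median fall -0.44 on the log2 scale, 403 transcripts rose and 209 fell by more than 2-fold, and 39 rose and 18 fell by more than 4-fold. Between 24 and 48 h, an interval of 24 h, 3663 transcripts changed (12.2%), with 1561 rises (5.18%) and 2102 falls (6.97%). The median rise was 0.43 and the median fall -0.49, 66 transcripts rose and 118 fell by more than 2-fold, and 7 rose and 5 fell by more than 4-fold. Rises were thus 52.7% of the changes of the first interval and 42.6% of those of the second. In a fit of all 9 control groups, given below, these shares were 49.2% and 40.7%. Rises did not outnumber falls in the first interval there. The hour of sampling is not given. By the labelled times alone, the 24 and 48 h samples lie whole days apart and the 6 h samples do not. Whether all sets started at the same hour is not given either, so a difference in time of day cannot be told apart from either interval.

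**Figure D1:**
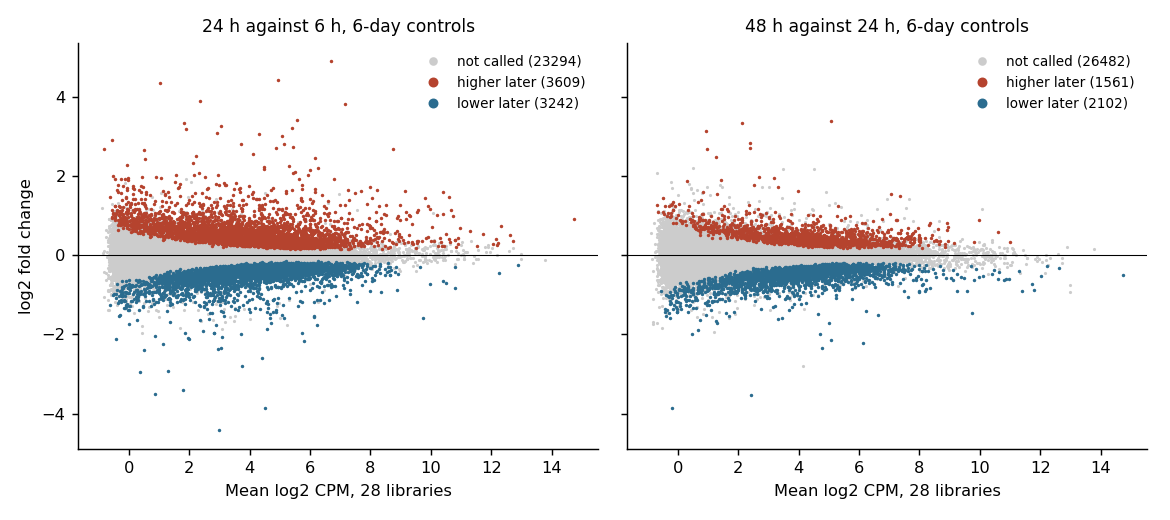
Each point is 1 of 30145 transcripts, with its mean log2 CPM over the 28 libraries on the horizontal axis and its log2 fold change between 2 times on the vertical axis, for 24 h against 6 h (left) and 48 h against 24 h (right). Red points rose and blue points fell at a false discovery rate below 0.05, and grey points were not called. The left panel holds 6851 coloured points and the right panel 3663.

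The count of the second interval rested on single libraries more than that of the first. It was 2376 without library 7 at 24 h and 2134 without library 7 at 48 h, and 2563 without the 2 libraries that stood apart. The first interval gave 5790 to 7155 changed transcripts when any 1 library was left out, and 7305 without the 2 that stood apart. With all libraries thinned to the lowest total, fewer transcripts could be tested, 24917 in place of 30145. Of these, 5485 changed in the first interval and 2681 in the second.

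Abundant transcripts were called more often than rare ones in both intervals. Of transcripts with a mean log2 CPM below 0, 6.33% were called in the first interval and 2.36% in the second. Between 6 and 8 on that scale, these shares were 38.8% and 23.1%, and at 8 and above they were lower again, 33.8% and 17.7%. The typical size of a called change ran the other way. In the first interval its median was 1.03 below 0, 0.37 between 6 and 8 and 0.46 at 8 and above. Over all transcripts tested, called or not, the median size was 0.295, 0.188 and 0.185 in these bands. A small change in a transcript with few counts is harder to call, and how far this shaped both trends was not tested. Among the 441 most abundant transcripts, at 8 and above, 149 were called in the first interval, 112 higher at 24 h and 37 lower. In the second interval 78 of them were called, 28 higher at 48 h and 50 lower.

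The share of the counts held by the most abundant transcripts also differed between the times. The 10 most abundant transcripts of each library took 9.30% ± 1.06 of the counts at 6 h (SD, n = 10), 10.7% ± 1.17 at 24 h (n = 10) and 9.25% ± 0.728 at 48 h (n = 8). These 10 were picked in each library separately, so they may differ between libraries and times. The 24 h value was higher than that at 6 h by 1.35 percentage points (two-sided permutation test with 100000 resamples, p = 0.016, 0.041 adjusted over 10 tests) and from 24 to 48 h the share dropped by 1.40 points (exact permutation test, p = 0.0085, 0.028 adjusted). The groups overlapped in both intervals, with 8.29% to 11.4% at 6 h, 8.81% to 12.8% at 24 h and 8.05% to 10.6% at 48 h. Library totals and the number of transcripts detected did not pass the same test in either interval, with adjusted p = 0.41 by permutation for each, nor did the mean distance between libraries (adjusted p = 0.8 for each). Distances within a group share pairs of libraries but were permuted as if independent, so their p-values cannot decide whether the spread differed.

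The transcripts that rose in the first interval took together a median of 19.3% of the counts at 6 h, 27.3% at 24 h and 24.9% at 48 h. Those that fell took 14.9%, 10.4% and 11.3%. The transcripts that rose in the second interval took 5.95%, 5.97% and 7.95% at the 3 times, and those that fell took 14.0%, 15.8% and 12.2%. These sets were chosen by the changes themselves, so the shares only describe how much of the counts they made up.

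Few of the transcripts tested, called or not, separated the groups completely. In the first interval, the ranges of the 10 and 10 libraries did not overlap for 636 of 30145 transcripts (2.11%), with 373 higher at 24 h and 263 lower. In the second interval, with 10 and 8 libraries, this held for 192 (0.637%), with 90 higher at 48 h and 102 lower. Ranges of fewer libraries separate more easily. Between the ends, 6 and 48 h, it held for 1195 (3.96%), 629 higher at 48 h and 566 lower. Appearance or loss of a transcript was rare among those deposited. Only 5, 6 and 12 of the 34856 transcripts had 0 counts in every library at 6, 24 and 48 h. A single transcript went from a mean under 0.1 CPM at 6 h to at least 1 CPM at 48 h, and 2 went the other way.

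The spread within groups was alike at the 3 times. Over 23155 transcripts, the median SD of log2 CPM between libraries was 0.265 at 6 h, 0.263 at 24 h and 0.252 at 48 h. In a principal component analysis of the same transcripts, the first component held 20.7% of the variance and the second 13.6%. The 6 h libraries lay between -45.1 and -26.3 on the first component, apart from all others. The 24 h libraries (0.421 to 24.6) and the 48 h libraries (9.03 to 41.4) overlapped there. The second component set most 24 h libraries (-55.6 to 5.04) below the 48 h libraries (-1.19 to 60.2), with the 6 h libraries between -24.4 and 19.9. The ends of that component were library 7 at 24 h and library 7 at 48 h, the libraries whose loss lowered the count of the second interval most.

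Over the whole span, 6803 transcripts differed between 48 and 6 h (22.6%), 3486 higher at 48 h and 3317 lower, and 639 were higher and 435 lower by more than 2-fold. This count was 6016 to 6948 when any 1 library was left out and 6284 without the 2 that stood apart. Of these transcripts, the median had covered 62.9% of its change by 24 h, with quartiles of 35.1% and 88.8%. Rises and falls were alike in this, with medians of 63.2% and 62.4%. At 24 h, 74.6% lay between their 6 and 48 h levels, 1180 lay past the 48 h level (17.3%) and 545 lay on the other side of the 6 h level (8.01%). All 3 shares come from the same libraries that made the calls and describe the path only.

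A separate contrast asked which transcripts at 24 h lay off the midpoint of their 6 and 48 h levels. It called 4428 transcripts (14.7%), of which 2690 lay above the midpoint and 1738 below it. By estimated level most were beyond both ends, with 2474 of the 2690 (92.0%) highest at 24 h and 1649 of the 1738 (94.9%) lowest. These positions come from the same libraries that made the calls, and the gap to each end was not tested for this set. The median distance from the midpoint was 0.43 above and -0.35 below on the log2 scale, and 88 and 30 transcripts lay more than 2-fold from it. Leaving out library 7 at 24 h lowered the count to 2910. Without the 2 libraries that stood apart it was 4355. By estimated level, the 6-day controls thus held transcripts that moved on through both intervals and others that stood out at 24 h.

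A time score placed each library on an axis made from other larvae. The axis is the mean change from 6 to 48 h in the 60 controls aged 4 and 5 days, over 23001 transcripts, with 0 at their mean at 6 h and 1 at their mean at 48 h. None of the 6-day libraries entered it. The 6 h libraries of the 6-day controls scored 0.785 to 1.02 with a median of 0.844, the 24 h libraries 1.09 to 1.247 with a median of 1.17, and the 48 h libraries 1.21 to 1.44 with a median of 1.33. All 24 h libraries were above all 6 h libraries, while the 24 and 48 h libraries overlapped. Means were 0.856 ± 0.0691 (SD, n = 10), 1.18 ± 0.0511 (n = 10) and 1.33 ± 0.0694 (n = 8).

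The score rose by 0.321 between 6 and 24 h (two-sided permutation test, p = 2e-05, the smallest that 100000 resamples can give, adjusted p = 0.0002) and by 0.154 between 24 and 48 h (exact permutation test, p = 0.00018, adjusted p = 0.00091). Without the 2 libraries that stood apart the steps were 0.324 and 0.139. The size of the steps depended on the axis. With an axis from the 4-day controls alone they were 0.142 and 0.151, and with 1 from the 5-day controls alone 0.465 and 0.0965, each with an unadjusted permutation p of 0.02 or lower. The 6-day controls at 6 h scored close to the 4-day controls at 48 h, with a mean of 0.837, and the 5-day controls at 24 h, at 0.825. The 5-day controls at 48 h were at 1.16. At 6 h the mean was -0.343 at 4 days and 0.343 at 5 days, so the score differed with age as well as with time. Those younger groups made the axis, so their scores are given for orientation and were not tested.

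**Figure D2:**
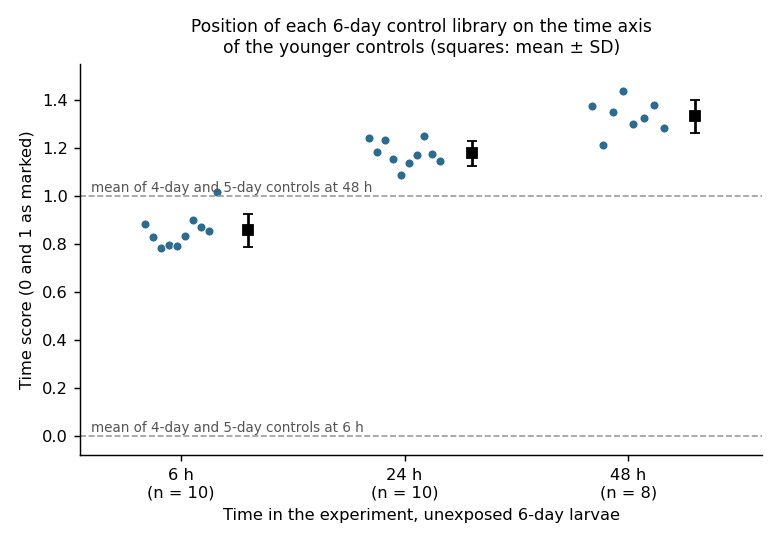
Each point is 1 control library aged 6 days, with its time score on the vertical axis and its time in the experiment on the horizontal axis. Black squares with bars are group means ± SD, and dashed lines mark the mean of the 4-day and 5-day controls at 6 h (0) and at 48 h (1). The 6 h libraries lie between 0.785 and 1.02, and the later libraries all lie above 1.

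The same 2 intervals were compared with those of the younger controls in 1 fit of the 9 control groups, which tested 32555 transcripts. In that fit the 6-day controls had 6300 changed transcripts in the first interval (19.4%), with 3100 rises and 3200 falls. The 4-day controls had 2699 (8.29%), with 1736 rises and 963 falls, and the 5-day controls 4462 (13.7%), with 2169 rises and 2293 falls. For the second interval the counts at 6 days were 3011 (9.25%), with 1225 rises and 1786 falls, at 4 days 1541 (4.73%), with 1170 and 371, and at 5 days 1547 (4.75%), with 960 and 587. Falls outnumbered rises in the second interval at 6 days, and rises outnumbered falls at 4 and 5 days. The difference in these counts between ages was not tested as such. Changes of more than 2-fold were not more numerous at 6 days in the second interval, with 220 against 494 at 4 days and 240 at 5 days.

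**Figure D3:**
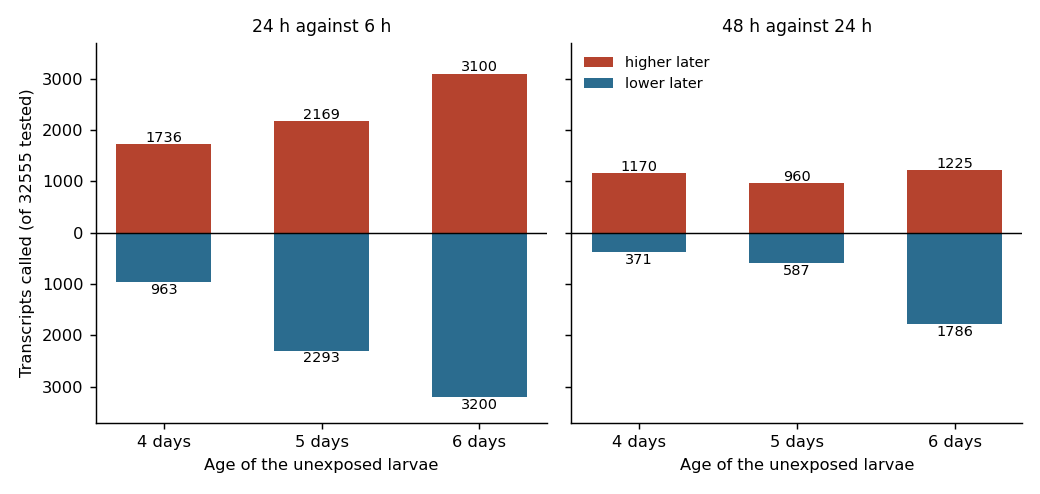
Bars give the number of transcripts, of 32555 tested in 1 fit of the 9 control groups, that were higher (red, upward) or lower (blue, downward) at the later time at a false discovery rate below 0.05, for unexposed larvae aged 4, 5 and 6 days. At 6 days 3100 rose and 3200 fell in the first interval, and 1225 rose and 1786 fell in the second.

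The difference itself, the 6-day change minus the mean of the 4-day and 5-day changes, passed the test for 3411 transcripts in the first interval (10.5%). It was above 0 for 1477 and below 0 for 1934. For the 1477, the median change was 0.52 at 6 days, -0.18 at 4 days and 0.04 at 5 days. For the 1934, it was -0.42 at 6 days, 0.18 at 4 days and 0.07 at 5 days. From 24 to 48 h, 777 transcripts differed (2.39%), 243 above 0 and 534 below. The median changes of the 534 were -0.34 at 6 days, 0.41 at 4 days and 0.20 at 5 days. These medians describe transcripts chosen by the difference.

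More transcripts differed from the 4-day than from the 5-day course. Against the 4-day controls alone, the first interval differed for 4780 of 32555 transcripts tested and the second for 1400. Against the 5-day controls alone the counts were 1776 and 156 of the same 32555. Without the 2 libraries that stood apart, 3341 and 477 of 32697 transcripts tested differed from the mean of both younger ages. Of the transcripts called at 6 days in the first interval, 79.2% had the same sign at 5 days and 49.7% at 4 days, where all transcripts tested gave 65.6% and 48.3%. For the second interval the shares were 89.9% at 5 days and 63.0% at 4 days, against 68.6% and 55.8% over all transcripts. The transcripts off the midpoint at 24 h gave 82.6% at 5 days and 37.4% at 4 days, against 66.4% and 45.1% over all. The contrast with the midpoint itself called 1869 transcripts at 5 days (5.74%) and 126 at 4 days (0.387%), against 3805 at 6 days in the same fit (11.7%).

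The exposed larvae aged 6 days gave a second reading of the same intervals in libraries that the controls do not share, with 29 libraries at each dose. They carry the library codes of their controls, so a difference between library sets would act on both. At 0.66 mg/l, 2226 transcripts changed in the first interval (7.21%) and 3549 in the second (11.5%). At 3.3 mg/l, 3062 changed in the first (10.4%) and 2460 in the second (8.36%). The second interval held 1656 rises and 1893 falls at the low dose, and 1311 rises and 1149 falls at the high dose. The excess of falls seen in the 6-day controls thus recurred at the low dose and not at the high dose. In the controls the first interval thus had the higher count, and so it had at the high dose, while at the low dose the second had. Whether these counts differ between doses was not tested.

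Directions seen in the controls mostly recurred in the exposed larvae. Of the transcripts called in the first interval in controls, 91.1% had the same sign at the low dose and 96.3% at the high dose, against 69.7% and 75.4% of all transcripts tested. In the second interval the shares were 91.7% and 91.7%, against 68.9% and 69.3%. Of the control calls of the first interval, 1581 were also called in the same direction at the low dose, which is 23.1% of the controls' list and 71.0% of the low-dose list, and 0 were called in the opposite direction. At the high dose 2362 were shared, 34.7% of the controls' list and 77.1% of the high-dose list, with 3 opposite. From 24 to 48 h, 1227 were shared at the low dose (33.6% and 34.6%) with 1 opposite, and 885 at the high dose (24.3% and 36.0%) with 3 opposite.

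Sizes were smaller in the exposed larvae for transcripts chosen in the controls. Those that rose in the first interval had a median of 0.51 in controls, 0.24 at the low dose and 0.36 at the high dose. Those that fell had -0.44, -0.20 and -0.28. For the second interval the medians of the rises were 0.43, 0.26 and 0.27, and those of the falls -0.49, -0.24 and -0.25. The choice was made on the control values, which favours larger sizes there, so this is no measure of a drug effect. The transcripts off the midpoint at 24 h in controls lay on the same side in 85.1% of cases at the low dose and 94.2% at the high dose, against 64.1% and 71.1% of all tested, although that contrast called only 995 (3.22%) and 415 (1.41%) transcripts there.

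**Figure D4:**
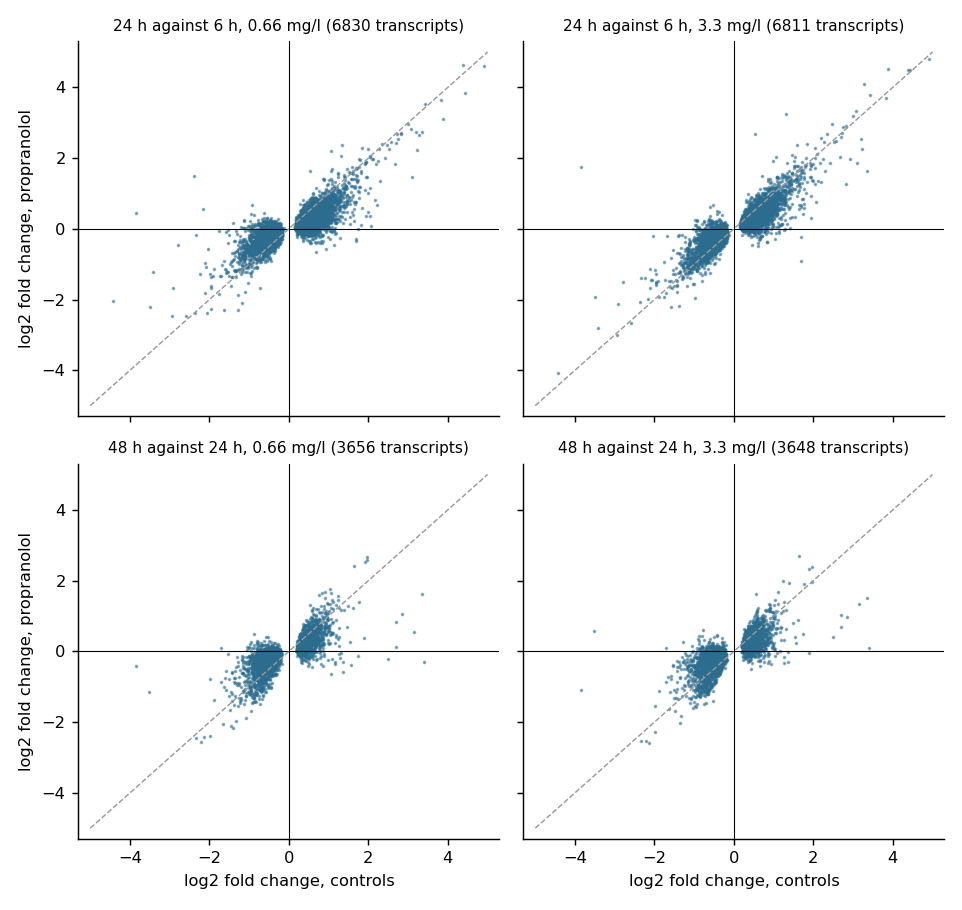
Each point is a transcript called in the unexposed 6-day larvae, with its log2 fold change in controls on the horizontal axis and in larvae of the same age in propranolol on the vertical axis, for the first interval (top) and the second (bottom) at 0.66 mg/l (left) and 3.3 mg/l (right). The dashed line marks equal changes. From 91.1% to 96.3% of the points lie in the quadrants of equal sign.

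4 transcripts are described singly. They are the largest rise and the largest fall of each interval among transcripts with a mean log2 CPM of at least 1 whose call held when each library was left out in turn. In the first interval 2512 rises and 2269 falls met these conditions, and in the second 655 and 1191. Their sizes in the interval that chose them are a description of extremes.

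FMt043868 was the largest rise of the first interval among transcripts that met these conditions. It had 2.81 to 7.49 CPM at 6 h (median 5.14), 131 to 196 CPM at 24 h (median 166) and 137 to 191 CPM at 48 h (median 149.6). The 6 h libraries lay far below all others, and the 24 and 48 h libraries overlapped. The rise was 4.91 ± 0.14 on the log2 scale (SE), or 30.1-fold, with an edgeR adjusted p of 6.7e-23, and the change of the second interval was -0.03 ± 0.12 (adjusted p = 0.92). The transcript also rose in the first interval in the younger controls, by 3.51 ± 0.15 at 4 days (edgeR adjusted p = 4.6e-34) and 3.09 ± 0.15 at 5 days (adjusted p = 3e-31). The 6-day rise exceeded their mean by 1.60 ± 0.18 (adjusted p = 5.4e-11). In the fit of all controls its median at 6 h was 7.43 CPM at 4 days, 11.99 at 5 days and 5.302 at 6 days, and at 24 h it was 86.7, 110.7 and 169. The exposed larvae of 6 days showed rises of 4.62 ± 0.11 at the low dose and 4.79 ± 0.13 at the high dose (edgeR adjusted p = 2e-25 and 7.9e-24).

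FMt030645 was the largest fall of the first interval among transcripts that met the conditions above, and few libraries carried it. At 6 h it had 0.834 to 81.1 CPM with a median of 2.82, at 24 h 0.0598 to 2.04 with a median of 0.883, and at 48 h 0 to 2.57 with a median of 1.27. Libraries 2, 4 and 10 at 6 h had 26.4, 74.0 and 81.1 CPM, whereas the other 7 had 0.834 to 3.70, within or close to the range of the later libraries. The fall was -4.42 ± 0.91 (SE, edgeR adjusted p = 0.00088) and was not called by limma-voom (-3.06, adjusted p = 0.058). The second interval gave 0.45 ± 1.08 (adjusted p = 0.83). In the younger controls the first interval gave 0.33 ± 0.58 at 4 days and 0.03 ± 0.61 at 5 days, which did not pass (edgeR adjusted p = 0.80 and 0.98), and the 6-day change lay below their mean by -4.60 ± 0.78 (adjusted p = 1.3e-05). At 6 h, high single values also occurred in exposed larvae, up to 33.5 CPM at the low dose and 389.8 CPM at the high dose. Later times had them too, up to 13.9 CPM at 24 h at the low dose and 185.1 CPM at 48 h at the high dose. The first-interval changes at the 2 doses were -2.03 ± 0.73 and -4.06 ± 1.37 and did not pass (edgeR adjusted p = 0.098 and 0.057). Those of the second interval, -0.36 ± 0.76 and 2.84 ± 1.33, did not pass either (edgeR adjusted p = 0.82 and 0.2).

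FMt040962 was the largest rise of the second interval among transcripts that met the conditions above. It had 2.26 to 8.00 CPM at 6 h (median 4.28), 0.919 to 5.31 at 24 h (median 3.11) and 3.18 to 29.4 at 48 h (median 8.86). The 48 h libraries spread over a wide range whose low end overlapped the earlier groups. Library 7 at 48 h had 29.4 CPM and library 11 had 24.2, while the rest had 3.18 to 13.95. Library 7 at 48 h is among those that stood apart from their groups. The first interval gave -0.53 ± 0.37 (SE, edgeR adjusted p = 0.33) and the second a rise of 1.98 ± 0.38, or 3.93-fold (adjusted p = 0.0019). The second interval was at 1.26 ± 0.34 in the 5-day controls (edgeR adjusted p = 0.014) and at 0.46 ± 0.41 in the 4-day controls (adjusted p = 0.67). Its difference at 6 days from the mean of both, 1.10 ± 0.42, did not pass (adjusted p = 0.18). The level was higher in older controls, with a median at 6 h of 0.444 CPM at 4 days, 1.31 at 5 days and 4.41 at 6 days. In exposed larvae it rose in the second interval by 2.57 ± 0.38 at the low dose and 1.95 ± 0.40 at the high dose (edgeR adjusted p = 5.3e-05 and 0.0028).

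FMt030099 was the largest fall of the second interval among transcripts that met the conditions above, and it fell in both intervals. It had 25.0 to 108 CPM at 6 h (median 44.9), 6.46 to 72.6 at 24 h (median 13.7) and 0.739 to 11.8 at 48 h (median 2.33). The 6 and 48 h libraries did not overlap, and each overlapped the 24 h libraries. The first interval gave -1.44 ± 0.45 (SE, edgeR adjusted p = 0.023), a call lost without library 4 at 6 h (-1.26, adjusted p = 0.051), with libraries of adjacent numbers summed and without the libraries under 9 M counts. The second gave -2.33 ± 0.54 (adjusted p = 0.0072), and the whole span -3.77 ± 0.56 (adjusted p = 1.5e-05). In the 5-day controls it fell by 1.29 and 1.94 in the same intervals (edgeR adjusted p = 0.028 and 0.0026), while in the 4-day controls the changes of 0.18 and -0.68 did not pass (0.86 and 0.46). In the fit of all controls, medians at 6 h were 184.6 CPM at 4 days, 196.4 at 5 days and 46.2 at 6 days. At 48 h they were 117.9, 19.5 and 2.39. The exposed larvae gave falls in the second interval of -2.45 ± 0.52 at the low dose and -2.53 ± 0.50 at the high dose (edgeR adjusted p = 0.0026 and 0.0022). Their first interval gave -1.38 ± 0.48 at the low dose, which did not pass (edgeR adjusted p = 0.087). At the high dose it gave -1.78 ± 0.45, which passed (adjusted p = 0.011).

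**Figure D5:**
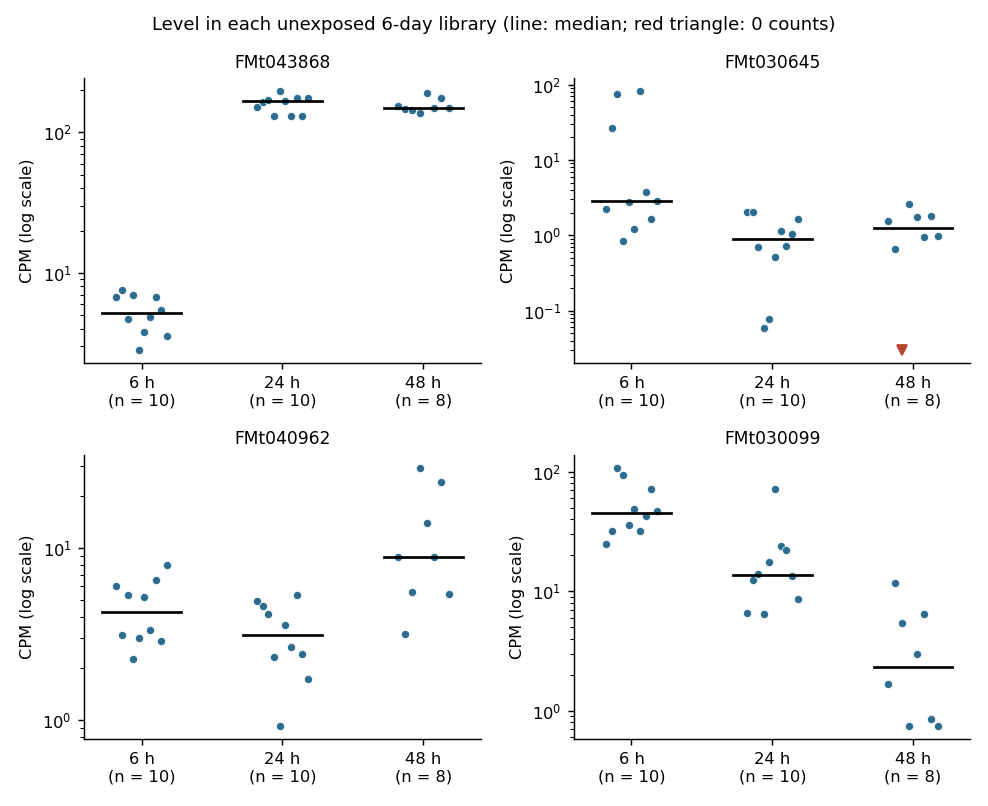
Each point is the level of a transcript in 1 unexposed 6-day library, in CPM on a log scale, at 6 h (n = 10), 24 h (n = 10) and 48 h (n = 8). Black lines are medians and the red triangle marks a library with 0 counts, drawn at the bottom of its panel. FMt043868 separates the 6 h libraries from all others, and 3 libraries of FMt030645 stand at 26.4 to 81.1 CPM at 6 h.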

How the data were processed

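The deposited values are read counts, whole numbers per transcript, which the authors gave as 1 table. The labels' protocols say that larvae were frozen, that lysis used a steel bead, and that the SENSE mRNA-Seq kit V2 (Lexogen) was used for the libraries. Mapping was to known transcripts of the species, per the series' design text. The submitters' processing notes list bcl2fastq 2.19.1, edgeR 3.26.8 and limma 3.40.6. Aligner, genome build and rule for counting were not given in the sources used here, so reads shared by transcripts of a gene or by near-identical copies make single transcripts uncertain. No transcript in the table totals under 166 counts over all libraries, and 0 are at 0 in all 28 libraries, so the table appears to hold only transcripts above some minimum.

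From these counts, R 4.3.3 with edgeR 4.0.16 was used to scale libraries (TMM), filter (filterByExpr) and run robust quasi-likelihood F-tests, adjusted by the Benjamini-Hochberg method. The 28 libraries were fitted together, the 9 control groups in a further fit, and each dose of the 6-day larvae in a fit of its own. The SE is the log2 fold change over the square root of F. A prior count of 2 entered log2 CPM. Single values per library were compared by permutation of libraries in SciPy 1.17.1 (Python 3.11.15), 10 tests in all. The edgeR procedure was tested on simulated counts, with 50 transcripts changed at each size, far fewer than were called in the data. For the first interval it recovered 16% of 1.25-fold, 48% of 1.5-fold and 86% of 2-fold changes, with 6 false and 125 true calls. For the second these shares were 6%, 60% and 88%, with 9 false and 126 true calls. Changes below 2-fold were thus often missed. Alternatives were RLE size factors, no filter, limma-voom (limma 3.58.1), DESeq2 1.42.0, the replicate number as a block, sums of adjacent numbers, thinning and leaving out libraries. Those that left out the 2 libraries standing apart or the libraries under 9 M counts, and the thinning of counts, were added after the data were seen. The groups, the comparisons, the rule for single transcripts and the alternatives were chosen with earlier results of these data known.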

Additional observations from a re-analysis of the deposited data

Results flagged for a closer look

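Of 27 sets of values of a group searched for a library far from the others, 5 gave such a library. The limit used is passed by about 1 in 20 sets by chance if values are independent and normally spread. These sets share libraries and some hold uneven CPM values, so that rate need not hold here and no excess is read from it. Library 11 at 6 h had the lowest total of its group, 9.46 M counts, and the next lowest had 13.4 M. Library 1 at 6 h lay farthest from the others of its group, at a mean distance of 0.620. Library 14 at 6 h had the highest time score of that group, 1.02, where the next was 0.900. Library 7 at 48 h lay farthest from its group, at 0.592. FMt030099 had 72.6 CPM in library 8 at 24 h, where the next highest library had 23.9.

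A further 4 results differed between ages by a test of the difference itself. The change from 6 to 24 h at 6 days differed from the mean change at 4 and 5 days for 3411 transcripts, and the change from 24 to 48 h for 777. For FMt043868 the first difference was 1.60, a larger rise at 6 days, and for FMt030645 it was -4.60, a fall at 6 days carried mainly by 3 of the 6 h libraries. Both transcripts were chosen for the size of that 6-day change, which favours such a difference.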

How the results depend on the processing

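Over all settings tried for the counts and group measures, 191 values kept their direction and call or, for counts, stayed within 1.5 times of the reported value, while 8 counts moved further and 1 mean changed sign. The count for 48 h against 24 h (3663) was 2296 with the replicate block, 2376 without library 7 at 24 h and 2134 without library 7 at 48 h. Leaving out each of the 28 libraries in turn gave 2134 to 4106 for 48 h against 24 h, 2910 to 4932 for the 24 h midpoint contrast (2910 without library 7 at 24 h), 5790 to 7155 for 24 h against 6 h and 6016 to 6948 for 48 h against 6 h. Of 32555 transcripts tested, 1776 differed between ages in the first interval and 156 in the second against the 5-day controls alone. Against the 4-day controls alone, 1400 differed in the second. Without the 2 libraries that stood apart, 477 of 32697 differed there from the mean of both younger ages. DESeq2 called 7348 and 4338 transcripts in the 2 intervals and limma-voom 6743 and 3534. The mean number of detected transcripts, 147 lower at 24 h than at 6 h, was 4.2 higher after thinning.

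Of the single transcripts, FMt043868 changed sign in the second interval without library 7 at 24 h, and its log2 fold change there lay between -0.075 and 0.0086 when any 1 library was left out (without library 7 at 24 h, adjusted p = 0.98), and so did the second-interval difference of FMt030645 against the 5-day controls alone (-0.33, adjusted p = 0.98). Neither was called in any setting. FMt030645 missed the threshold with limma-voom. FMt030099 missed it in the first interval without library 4 at 6 h, with sums of adjacent numbers (-1.46, adjusted p = 0.09) and without the libraries under 9 M counts (-1.28, adjusted p = 0.061). The causes were not tested.

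Same-numbered libraries of different times did not deviate together, with a median correlation of their deviations of -0.043 over 26 pairs and 3 above 0.1, so the replicate numbers were not taken as pairs. With the number as a block, 24 h against 6 h gave 6307 transcripts and 48 h against 6 h 5687. Depth limits rare transcripts most: thinned to the lowest total, 24917 transcripts could be tested in place of 30145.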

Other observations

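Transcripts with neighbouring identifier numbers had related changes. The log2 fold changes of the first interval correlated at r = 0.27 over 13389 pairs of transcripts numbered 1 apart, 0.16 for pairs 2 apart, 0.059 for 5 apart, 0.040 for 10 apart and 0.010 for 100 apart. For the second interval these values were 0.20, 0.11, 0.042, 0.022 and 0.013. All pairs share the same libraries, and the table does not say which transcripts belong to 1 gene, so counts of changed transcripts are not counts of genes.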
